A study of Mus musculus with 6 samples.

Results

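Skeletal muscle fibres contract when calcium released from the sarcoplasmic reticulum binds troponin and lets myosin pull on actin, and creatine kinase, glycogen breakdown and mitochondria supply the energy. Fast and slow fibres use different genes for the same job, with their own myosin heavy chains, light chains and troponins. The adrenal gland makes steroids in its cortex and catecholamines in its medulla, and has no striated muscle of its own. The 40 genes described here code for parts of the skeletal muscle sarcomere, its calcium handling and its energy supply, or for regulators of muscle genes. They were followed on arrays of whole mouse adrenal glands. The genes were taken by name, and a probe set, the array's group of probes for a transcript, was used where the platform annotation gives that name alone. This gave 39 of the 40 genes, out of 8251 genes measured on the array, through 56 of its 12422 probe sets that are not controls. Ttn, the giant spring protein titin, was not analysed on the arrays here and enters only the promoter counts below. The list was drawn up with the difference between the strains on these arrays known, so the strain differences below are a description and support nothing.

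The study compared 3 arrays of the hypertensive BPH mouse strain with 3 of the hypotensive BPL strain, all from male mice aged 12 weeks. The strains are known as lines bred by selection for high and for low blood pressure, and the labels name no treatment, transgene or deletion. They count 3 mice per strain without saying that each array stands for a separate mouse, so p-values measure only the spread between these samples, which may be technical. Values are MAS5 signals, linear probe set intensities, after each array was scaled to the same median. In a whole-gland sample, fewer cells of a type and less RNA per cell cannot be told apart.

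Differences are given as log2(signal + 203), BPH minus BPL, with 203 taken from the 20th percentile of the signals, so that differences of dim genes are understated. Errors of differences are standard errors (SE) from limma fitted on all 7453 tested probe sets, those left after the 40% with the lowest mean signal were put aside. In that fit 294 probe sets, or 3.94%, had an adjusted p under 0.05, 230 of them higher and 64 lower in BPH. Of the calls, 78.2% were higher in BPH, against 65.9% with the authors' own scaling and 67.3% after quantile normalization. Among the tested probe sets the median was 0.08, and with the authors' scaling -0.03, a shift to set beside any small difference below. The gland's own markers were bright. The summed signal of 7 tested cortex genes, Star and Cyp11a1 among them, ran from 434822 to 574041 in BPL and from 548074 to 639665 in BPH. The sum of 6 chromaffin cell genes, Th and Chga among them, ran from 144389 to 226085 in BPL and from 229150 to 298399 in BPH.

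Most of the 40 genes were bright in BPL replicates 1 and 2, dimmer in BPL replicate 3 and lower still in the BPH arrays. All 3 BPH signals were under 203 for 15 of the 56 probe sets. Of the 38 genes with a tested probe set, 37 had a negative difference, with a median of -2.34 against 0.09 over all 5668 tested genes. A member could pass the filter through its BPL signals alone, so these figures lean towards genes that differ. Over all 56 probe sets, dim ones included, the median was -1.77, against 0.01 over all probe sets on the array. Genes with differences beyond -2 numbered 22, those between -1 and -2 numbered 9, and 7 lay within 1 of 0. All 3 BPL arrays lay above all 3 BPH arrays for 28 of the 56 probe sets, which was so for 7.91% of all probe sets. By limma, 10 of the 47 tested probe sets were lower in BPH, against 0.859% of all tested ones. Counted by gene, 9 of the 38 genes were called lower in BPH and 0 higher, against 0.847% and 3.26% of all tested genes. The called genes were Acta1, Myh4, Myh1, Tnnt3, Mylpf, Myl2, Myh7, Mb and Cox6a2. Nothing is read from these counts, since the list was chosen with this comparison known. The number of genes called turned on which arrays were in the fit. It came to 1 when BPL replicate 1 was left out, and likewise for each of BPH replicates 1, 2 and 3. Over all probe sets, 31, 33, 19 and 26 were called lower in those fits, against 64 in the main one. Leaving out BPL replicate 2 gave 4 genes, with 20 probe sets called lower over the array. BPL replicate 3 was the lowest BPL array in 46 of the 56 probe sets. When it was left out, 30 genes were called, with 100 probe sets called lower over the array. With BPL replicates 1 and 2 both left out, the median was -0.72.

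**Figure D1:**
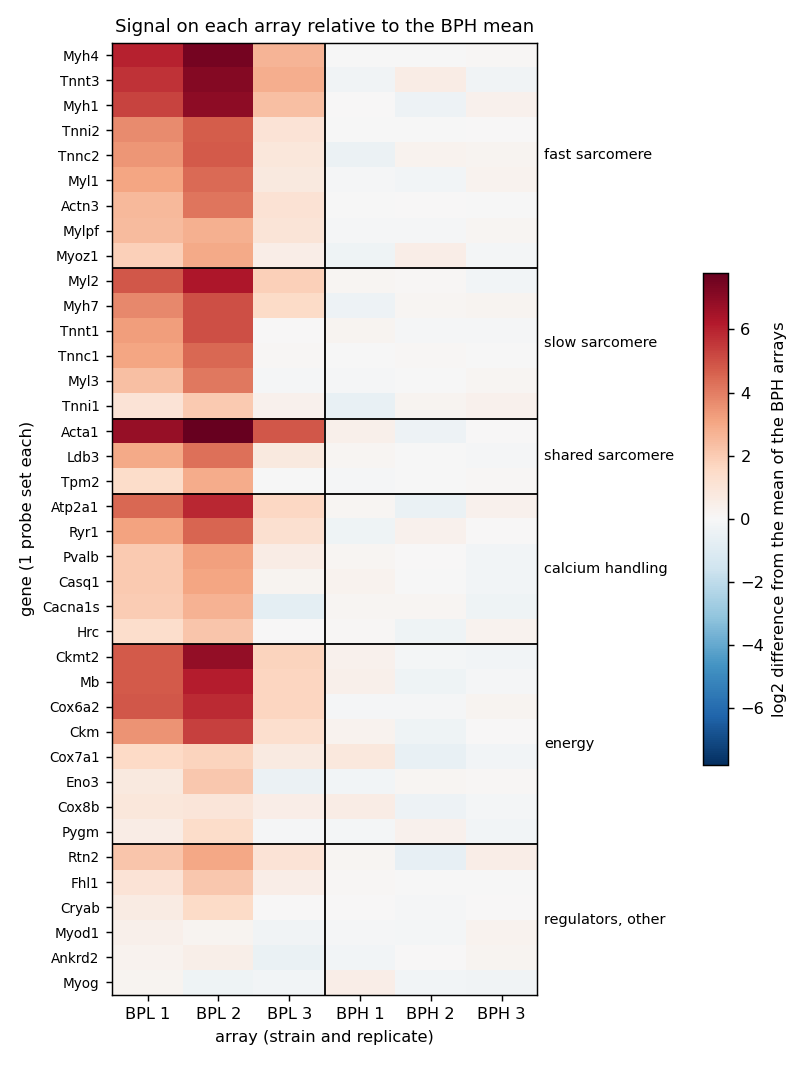
Log2 difference of each array from the mean of the 3 BPH arrays (colour) for 38 genes, 1 probe set each, grouped by class, with arrays in columns. BPL 1 and BPL 2 are dark for most genes, BPL 3 is darkest for Acta1 and next for the fast genes Tnnt3, Myh4 and Myh1, and the bottom rows, Myod1, Ankrd2 and Myog, are pale throughout.

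On the probe set used for each gene, the fast sarcomere genes stood apart between the strains on every array. Myh4, the myosin heavy chain of the fastest fibres, had signals of 14627, 40018 and 1224 on BPL arrays 1, 2 and 3. On BPH arrays 1, 2 and 3 it was at 21.8, 19.2 and 45.6, all under the 203 that marks the dim end of the array. Its difference was -5.35 ± 1.01 (SE), and even the dimmest BPL array lay far above the BPH arrays. Tnnt3, the fast troponin T, which ties the troponin complex to tropomyosin, read 15289, 44512 and 1991 in BPL and 51.0, 255 and 54.8 in BPH. The groups did not overlap, and the difference was -5.21 ± 0.92 (SE). Myh1, another fast myosin heavy chain, differed by -4.87 ± 0.96 (SE). Myoz1, a Z-disc protein of fast fibres that binds calcineurin, had the smallest difference of this class, at -1.77 ± 0.54 (SE). Its signals were 5300, 11445 and 1937 in BPL and 983, 1925 and 1171 in BPH, so that BPL replicate 3 and BPH replicate 2 were close together. The remaining genes were the light chains Myl1 (-2.77) and Mylpf (-2.08), the troponins Tnnc2 (-3.02), which binds calcium, and Tnni2 (-3.15), which blocks actin at rest, and the fast Z-disc actinin Actn3 (-2.62). In all 9 fast genes every BPL array lay above every BPH array on the probe set used, and the class median was -3.02. Over all probe sets of these genes this was so for 9 of 13, against 7.91% of all probe sets on the array.

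The slow sarcomere genes had a class median of -2.66, but on BPL replicate 3 the probe sets used for Tnnc1, Tnnt1, Tnni1 and Myl3 were not above the BPH arrays. Myl2, the regulatory light chain of slow and heart muscle, gave signals of 7418, 20818 and 755 in BPL and 85.7, 73.2 and 28.3 in BPH, a difference of -4.34 ± 0.93 (SE). Myh7, the slow myosin heavy chain, gave 5738, 14288 and 1070 in BPL and 141, 301 and 327 in BPH, a difference of -3.41 ± 0.74 (SE). For both, BPL replicate 3 stayed above the BPH arrays. The other slow genes behaved otherwise on that array. Tnnc1, the calcium sensor of slow and heart muscle, was at 1986, 5706 and 68.6 in BPL and at 47.8, 76.6 and 46.3 in BPH. BPL replicate 3 thus fell inside the BPH range, while the other BPL arrays were far above it. Myl3, the essential light chain of slow and heart muscle, was at 982, 3849 and 13.0 in BPL and at 16.4, 21.3 and 49.6 in BPH. Its BPL replicate 3 signal was the lowest of all 6, in a range where signals are too dim to be ordered. Tnni1, the slow troponin I, had the smallest difference, -1.15 ± 0.43 (SE), with 4473, 8831 and 2523 in BPL and 1269, 2363 and 2608 in BPH. Groups did not overlap for 2 of the 6 slow genes, against 9 of 9 fast genes. That count depends on the probe set that stands for each gene. Over all their probe sets it was 3 of 8 slow against 9 of 13 fast, beside 7.91% of all probe sets on the array. The median log2 difference of BPL replicate 3 from the BPH mean was 1.06 for fast and 0.19 for slow genes. This contrast rests on 1 array, was not tested, and is not seen when BPL replicate 3 is read as a share of BPL replicate 2, as given further on.

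**Figure D2:**
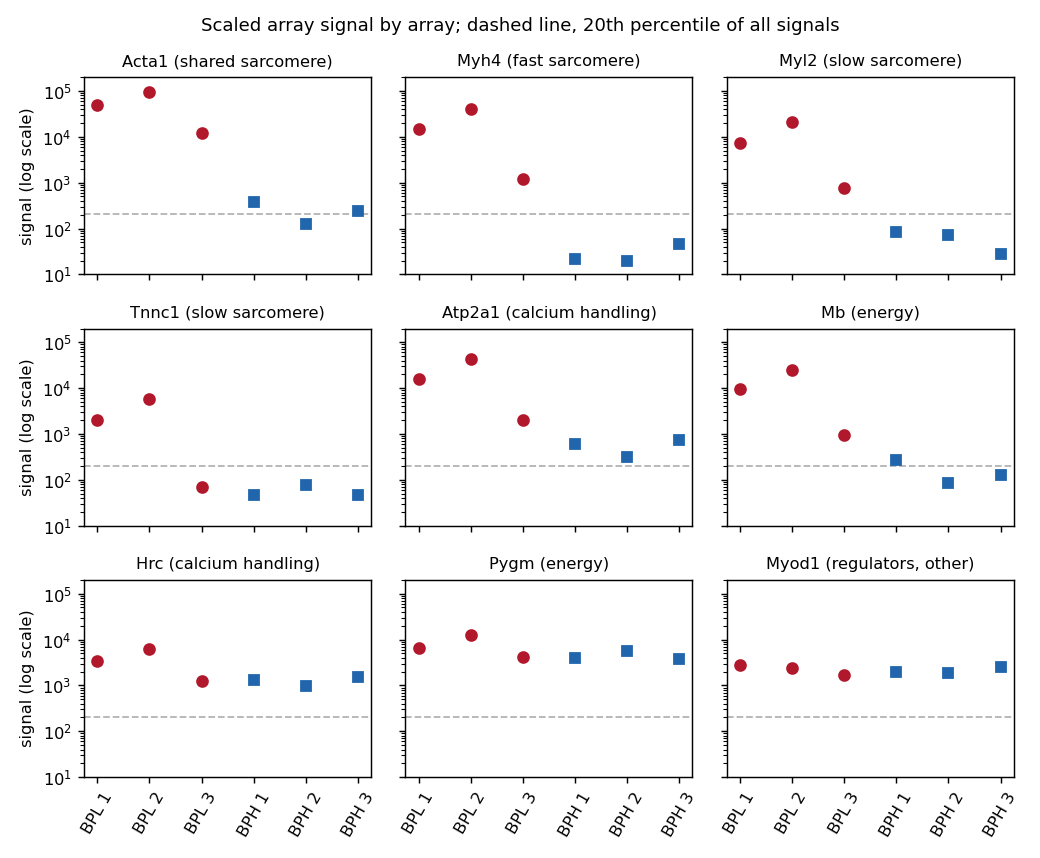
Scaled signal on each array (log axis) for 9 genes, with red circles for BPL, blue squares for BPH and a dashed line at 203, the 20th percentile of all signals. Myh4 and Acta1 stay above the BPH arrays on BPL 3, Tnnc1 drops into the BPH range there, and Myod1 lies between 1713 and 2769 on all arrays.

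Sarcomere genes that both fibre types use followed the same arrays. Acta1, the actin of the thin filament in adult skeletal muscle, was at 48471, 96330 and 12156 in BPL and at 376, 125 and 239 in BPH, and differed by -6.47 ± 0.65 (SE). All BPL arrays were far above all BPH arrays. Ldb3, which holds actinin at the Z-disc, was at 2422, 6480 and 377 in BPL and at 168, 135 and 109 in BPH, a difference of -2.67 ± 0.73 (SE) with no overlap. Tpm2, a tropomyosin that smooth muscle and other cells also make, was at 5562, 15778 and 1936 in BPL and at 1823, 1952 and 2097 in BPH. Its difference was -1.43 ± 0.60 (SE), and BPL replicate 3 lay among the BPH arrays. Actn2, the Z-disc actinin of all skeletal fibres and heart, was too dim to be tested, at 154, 198 and 167 in BPL and 97.3, 124 and 113 in BPH. It was the only measured gene of the 40 with no tested probe set.

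The starts of 5 of these genes are shown because their signals moved together over the arrays or, for Cox8b, moved differently, and because muscle genes are known to be bound by MyoD, serum response factor and MEF2. Each is the 250 bases before the transcription start, 5′ to 3′, as RefSeq places it on GRCm38.p6. Acta1 lies at chr8:123894776-123895025 on the minus strand, Myh4 at chr11:67237562-67237811 on the plus strand and Atp2a1 at chr7:126463074-126463323 on the minus strand. Ckmt2 lies at chr13:91876886-91877135 and Cox8b at chr7:140900447-140900696, both on the minus strand. Capitals mark matches to the CArG box of serum response factor, to the MEF2 site and to CAGCTG, a form of the E-box CANNTG that MyoD and myogenin bind.
Acta1: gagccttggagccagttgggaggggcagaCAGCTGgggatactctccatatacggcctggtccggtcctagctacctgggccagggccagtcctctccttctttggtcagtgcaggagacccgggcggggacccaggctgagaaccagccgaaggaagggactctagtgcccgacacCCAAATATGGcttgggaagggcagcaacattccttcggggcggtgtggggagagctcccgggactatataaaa
Myh4: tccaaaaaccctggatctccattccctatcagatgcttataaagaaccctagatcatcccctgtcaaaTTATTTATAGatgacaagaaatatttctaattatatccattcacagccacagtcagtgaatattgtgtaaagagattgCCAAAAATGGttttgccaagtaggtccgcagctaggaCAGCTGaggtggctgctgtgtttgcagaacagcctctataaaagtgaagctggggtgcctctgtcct
Atp2a1: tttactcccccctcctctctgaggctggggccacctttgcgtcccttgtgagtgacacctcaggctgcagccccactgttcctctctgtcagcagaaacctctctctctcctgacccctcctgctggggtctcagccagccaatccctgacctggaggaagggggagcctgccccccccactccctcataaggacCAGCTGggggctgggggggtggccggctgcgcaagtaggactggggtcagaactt
Ckmt2: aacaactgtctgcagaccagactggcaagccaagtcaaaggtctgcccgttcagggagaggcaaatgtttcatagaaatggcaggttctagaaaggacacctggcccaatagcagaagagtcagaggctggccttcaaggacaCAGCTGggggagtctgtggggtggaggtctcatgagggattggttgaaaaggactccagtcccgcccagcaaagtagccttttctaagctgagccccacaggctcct
Cox8b: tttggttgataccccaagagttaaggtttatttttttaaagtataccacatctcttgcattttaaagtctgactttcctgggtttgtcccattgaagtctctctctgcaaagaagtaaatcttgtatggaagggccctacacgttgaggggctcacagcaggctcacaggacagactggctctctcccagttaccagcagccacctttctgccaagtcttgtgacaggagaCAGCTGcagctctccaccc

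Myh4 held a CArG box, a MEF2 site and CAGCTG, whose first bases lay 104, 182 and 67 bases before the start. Acta1 held a CArG box and CAGCTG, at 73 and 221 bases. The other genes shown held CAGCTG alone, at 55 bases in Atp2a1, 107 in Ckmt2 and 19 in Cox8b, the last one a gene whose array pattern differed. RefSeq promoters were matched for 33 of the 40 genes, 41 promoters in all. Searched on both strands of the 250 bases, CAGCTG was in 18 of the 41 (43.9%), against 13.0% of 32851 promoters of all genes. The CArG box was in 6 (14.6%), against 1.47%, and the MEF2 site in 4 (9.76%), against 2.92%. The looser E-box CANNTG, which includes CAGCTG, was in 35 (85.4%), against 66.2%. The nearest set for comparison is 83 promoters of other skeletal muscle genes, of which 31.3% held CAGCTG, 2.41% the CArG box, 10.8% the MEF2 site and 77.1% CANNTG. A match of letters is no sign that a factor was bound there, some genes have several overlapping promoters, and the shares were not tested.

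Calcium handling genes also had their highest signals on BPL replicate 2. Atp2a1, the pump that returns calcium to the reticulum of fast fibres, gave 16222, 43040 and 2019 in BPL and 605, 319 and 744 in BPH, with no overlap and a difference of -3.98 ± 0.91 (SE). A second Atp2a1 probe set gave -4.48 ± 1.01 (SE). Ryr1, the channel that releases calcium, gave 3192, 8789 and 727 in BPL and 106, 285 and 199 in BPH, again with no overlap, and a difference of -2.96 ± 0.69 (SE). Pvalb, the calcium buffer parvalbumin of fast fibres, gave -1.94 ± 0.55 (SE) on its brighter probe set, where its BPL arrays stood above the BPH arrays. On its other probe set, at -2.10 ± 0.76 (SE), BPL replicate 3 (166) was below BPH replicate 3 (247). For the remaining members of this class BPL replicate 3 did not stand above the BPH arrays. Casq1, the calcium store protein of fast fibres, was at 6680, 13889 and 1751 in BPL and at 1786, 1431 and 1246 in BPH. Cacna1s, the voltage sensor that opens Ryr1, was at 1675, 2971 and 82.8 in BPL and at 330, 326 and 183 in BPH, so that BPL replicate 3 was the lowest array of all. Hrc, a calcium-binding protein of the reticulum, had the smallest difference, -1.20 ± 0.47 (SE), with 3487, 6382 and 1277 in BPL and 1307, 951 and 1512 in BPH. The class median was -1.86. Groups did not overlap for 3 of the 6 genes, or 4 of the 8 probe sets, against 7.91% of all probe sets on the array.

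Among the energy genes some followed the sarcomere genes closely and others did not. Ckmt2, the creatine kinase of muscle mitochondria, gave 7041, 30036 and 658 in BPL and 126, 33.8 and 24.1 in BPH, a difference of -4.46 ± 1.06 (SE). Mb, the oxygen carrier myoglobin, gave 9687, 24481 and 958 in BPL and 277, 86.1 and 128 in BPH, a difference of -4.20 ± 0.93 (SE). Neither gene's groups overlapped. Cox6a2, the cytochrome oxidase subunit of heart and skeletal muscle, was at 16401, 31305 and 1629 in BPL and at 318, 332 and 450 in BPH, and differed by -4.12 ± 0.88 (SE). The cytosolic creatine kinase Ckm differed by -3.38 ± 0.83 (SE) on its brighter probe set. Eno3, the muscle enolase of glycolysis, read 8395, 21535 and 3541 in BPL and 4134, 5393 and 5164 in BPH, so that BPL replicate 3 was below the BPH arrays, and the difference was -0.81 ± 0.54 (SE). Pygm, the glycogen phosphorylase of muscle, had the smallest difference, -0.65 ± 0.36 (SE), with 6607, 12503 and 4175 in BPL and 3874, 5735 and 3861 in BPH. The class median was -2.36, with no overlap in 4 of 8 genes. By probe set it was 6 of 13, against 7.91% of all probe sets on the array.

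Cox7a1 and Cox8b, cytochrome oxidase subunits that brown fat makes as well as muscle, had another pattern, which was singled out after their values were seen. Cox7a1 was at 16811, 19179 and 8983 in BPL and at 9841, 3643 and 4700 in BPH, a difference of -1.33 ± 0.40 (SE). Cox8b was at 47381, 50056 and 35776 in BPL and at 37996, 18962 and 22812 in BPH, a difference of -0.78 ± 0.27 (SE). For both, BPH replicate 1 was above BPL replicate 3, so the groups overlapped. Of the brown fat markers, Ucp1 and Cidea were bright on all arrays. Ucp1, the uncoupling protein of brown fat, was at 64979, 63359 and 48780 in BPL and at 46044, 27118 and 27570 in BPH. Cidea, a lipid droplet protein of brown fat, was at 44350, 51183 and 40472 in BPL and at 44607, 24397 and 22639 in BPH. BPH replicate 1 was the highest BPH array for these 4 genes. From the BPH mean, it lay higher by 0.81 on the log2 scale for Cox7a1, 0.58 for Cox8b, 0.50 for Ucp1 and 0.61 for Cidea. BPH replicate 1 was also the highest BPH array for other energy genes, by 0.42 for Mb, 0.34 for Ckmt2 and 0.30 for Ckm. This was so in 9 of the 13 energy probe sets in all. In 4 of the 13, those of Ckmt2 among them, all BPH signals were under 203, where their order is not reliable. On the brighter probe sets of Mb, Ckmt2 and Ckm, BPH replicate 1 stayed below BPL replicate 3, whereas in Cox7a1 and Cox8b it did not. Another brown fat gene differed the other way. Dio2, which activates thyroid hormone in brown fat and other tissues, was at 736, 941 and 1026 in BPL and at 1673, 1962 and 3430 in BPH. It was higher in BPH by 1.16 ± 0.26 (SE, limma adjusted p = 0.0478), a call lost with the authors' scaling, after quantile normalization and after centring. Elovl3, Ppargc1a and Zic1 were too dim to be tested, and Zic1 was under 203 on all arrays. Elovl3 was at 789, 864 and 631 in BPL and at 91.3, 290 and 329 in BPH. Its difference was -1.17 with no overlap, and that of Ppargc1a was 0.23. Over the 3 brown fat genes tested, of 8 listed and 6 measured, the summed signal ran from 90278 to 115483 in BPL and from 53476 to 92324 in BPH. The part of brown fat in the Cox7a1 and Cox8b values was not tested.

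**Figure D3:**
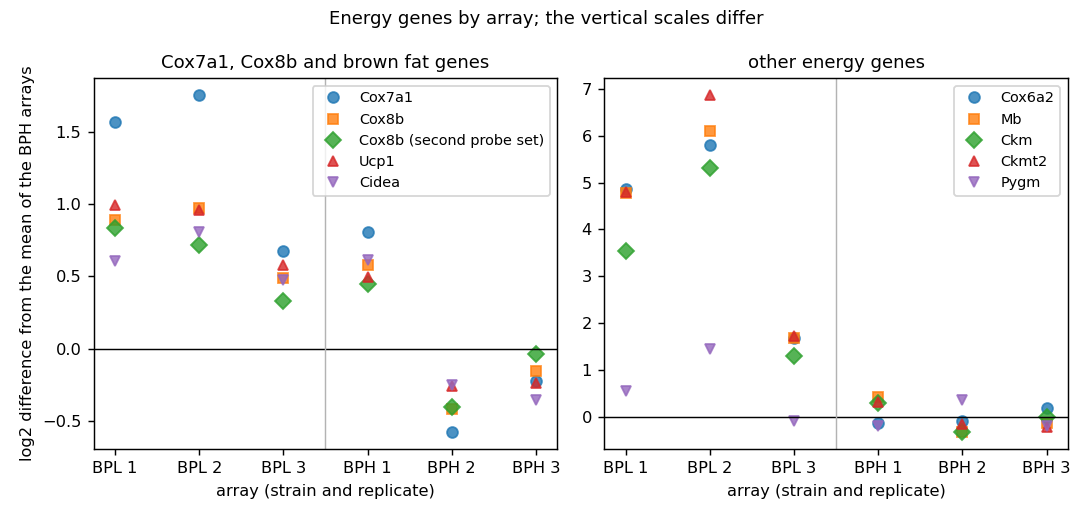
Log2 difference of each array from the BPH mean for Cox7a1, Cox8b, Ucp1 and Cidea (left) and for Cox6a2, Mb, Ckm, Ckmt2 and Pygm (right), with different vertical scales. On the left BPH 1 lies above the other BPH arrays for every gene, as it does on the right for Mb, Ckm and Ckmt2. The Ckmt2 signals on the BPH arrays are all under 203. On the right BPL 2 is the highest array for every gene shown.

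Regulators and other genes of the list had the smallest differences, with a class median of -0.42. Rtn2, a reticulon with a muscle form, read 1960, 3785 and 828 in BPL and 335, 107 and 495 in BPH, a difference of -2.08 ± 0.48 (SE) with no overlap. Fhl1, a LIM protein of muscle that other tissues make too, read 7447, 16072 and 5138 in BPL and 3825, 3364 and 3376 in BPH, a difference of -1.23 ± 0.36 (SE) with no overlap. The small heat shock protein Cryab had -0.74 ± 0.33 (SE). The master regulators of muscle differentiation did not follow the sarcomere genes. Myod1 was at 2769, 2416 and 1713 in BPL and at 1924, 1830 and 2557 in BPH, a difference of -0.11 ± 0.21 (SE). Myog, myogenin, was at 877, 549 and 627 in BPL and at 1143, 604 and 583 in BPH, and its difference, 0.11 ± 0.25 (SE), was the only positive one among the 38 genes. Ankrd2, a stretch-responsive ankyrin repeat protein, was at 1046, 1214 and 513 in BPL and at 671, 850 and 977 in BPH, a difference of -0.07 ± 0.27 (SE). In these 3 genes the groups overlapped. Each kept its sign with the authors' scaling, after quantile normalization and after centring, but each changed sign when some single array was left out.

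**Figure D4:**
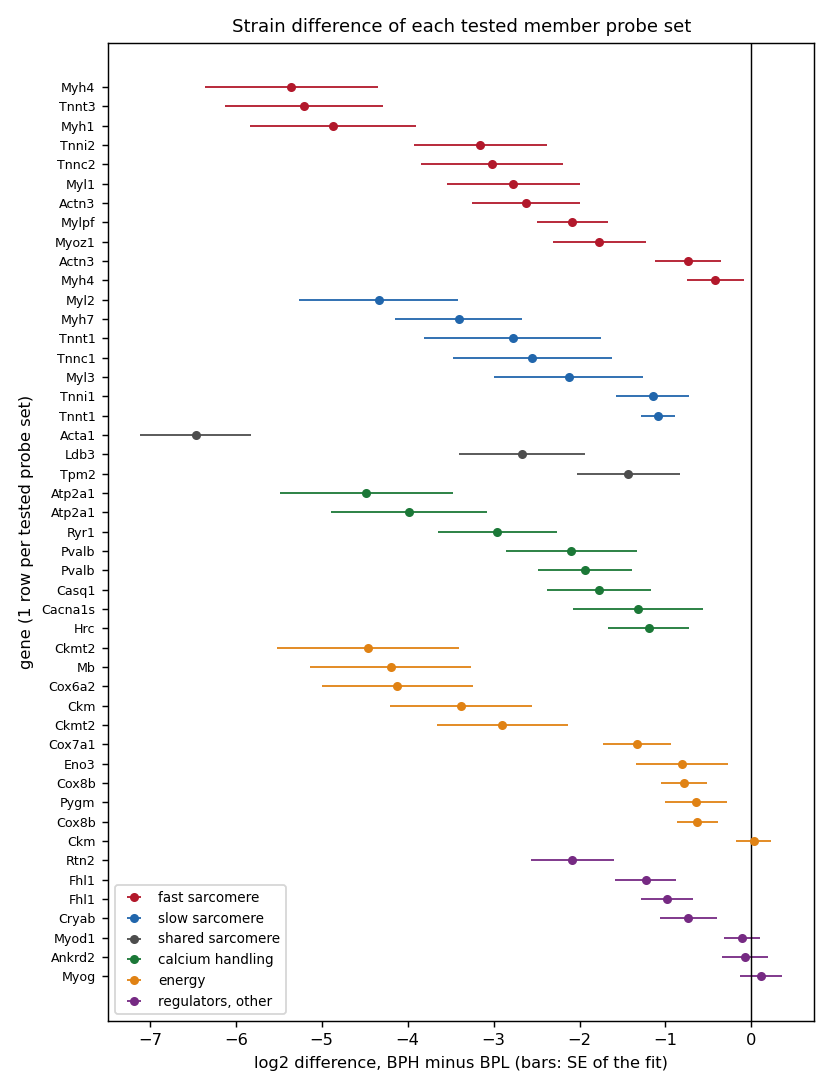
Log2 difference, BPH minus BPL, of the 47 tested probe sets of the 40 genes, with bars for the SE of the fit and colours for the classes. Acta1 lies farthest left at -6.47, most sarcomere genes lie beyond -1, and Myod1, Ankrd2, Myog and 1 Ckm probe set lie next to 0.

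Probe sets of the same gene did not always give the same picture. Of the 39 genes, 15 had several, and 9 of the 56 probe sets were too dim to be tested. Myh4 had a second probe set at 779, 1910 and 852 in BPL and 728, 1129 and 533 in BPH, a difference of -0.42 ± 0.33 (SE), 4.93 away from the other. Ckm had a second one at 1276, 817 and 784 in BPL and 1183, 888 and 838 in BPH, a difference of 0.03 ± 0.21 (SE). The groups overlapped on both of these, and BPL replicate 2 was the highest array for the Myh4 one only. Tnnt1, the slow troponin T, was at 4299, 14631 and 268 in BPL and at 320, 234 and 225 in BPH on its brighter probe set, a difference of -2.78 ± 1.03 (SE). Its other probe set was at 4624, 4292 and 2845 in BPL and at 1729, 1687 and 1693 in BPH, a difference of -1.09 ± 0.20 (SE). That smaller but more even difference was called by limma and the larger one was not. Actn3 gave -2.62 and -0.74, and Cryab -0.74 and, on a dim probe set, 0.07. Second probe sets of Myh7, Mb, Tnnc2 and Tpm2 were dim, at differences from -0.21 to -0.40, as was the third of Ckmt2, at -0.26. Mylpf, Pvalb and Cox8b gave nearly the same difference on both, with gaps of 0.05 to 0.16. The groups overlapped, however, on the dimmer probe sets of Mylpf and Pvalb, and on both of Cox8b. Several of these probe sets, the brighter ones of Myh7, Tnnc2 and Ckm among them, carry the array maker's suffix for probes shared within a gene family, so their signal may include related genes.

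The BPL arrays were then compared with each other through their excess, the signal minus the mean of the BPH arrays. This used the 44 of 56 probe sets whose excess in BPL replicate 2 was above 1000, a limit set after the values were seen that favours probe sets bright on that array. In 41 of the 44 the order was BPL replicate 2, then 1, then 3. The exceptions were the second probe sets of Myh4, Tnnt1 and Cox8b. As a share of the excess in BPL replicate 2, that in BPL replicate 1 had a median of 36.7%. By class the medians were 36.9% for fast sarcomere genes, 35.4% for slow ones, 36.0% for shared ones, 37.9% for calcium handling, 37.1% for energy and 37.8% for regulators. Fast and slow genes thus stood in nearly the same proportion on these 2 arrays. Single genes departed from it, with 23.3% for Ckmt2, 24.9% for Myl3, 50.2% for Acta1, 51.8% for Cox6a2 and 78.9% for Mylpf. In BPL replicate 3 the median share was 3.61%, with class medians of 3.77% for fast and 3.33% for slow sarcomere genes, and from 2.46% (calcium handling) to 12.6% (regulators, 4 probe sets) over all classes, and 26 of the 44 probe sets were above all BPH arrays. By this measure fast and slow genes did not separate there. The slow genes Tnni1 (6.56%) and Myh7 (5.80%) were above the fast gene Myh4 (2.99%), while Tnnc1 (0.21%) and Myl3 (-0.42%) were below it. Acta1 kept 12.4%. For the brighter Cox8b probe set the shares were 88.6% in BPL replicate 1 and 39.1% in BPL replicate 3.

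**Figure D5:**
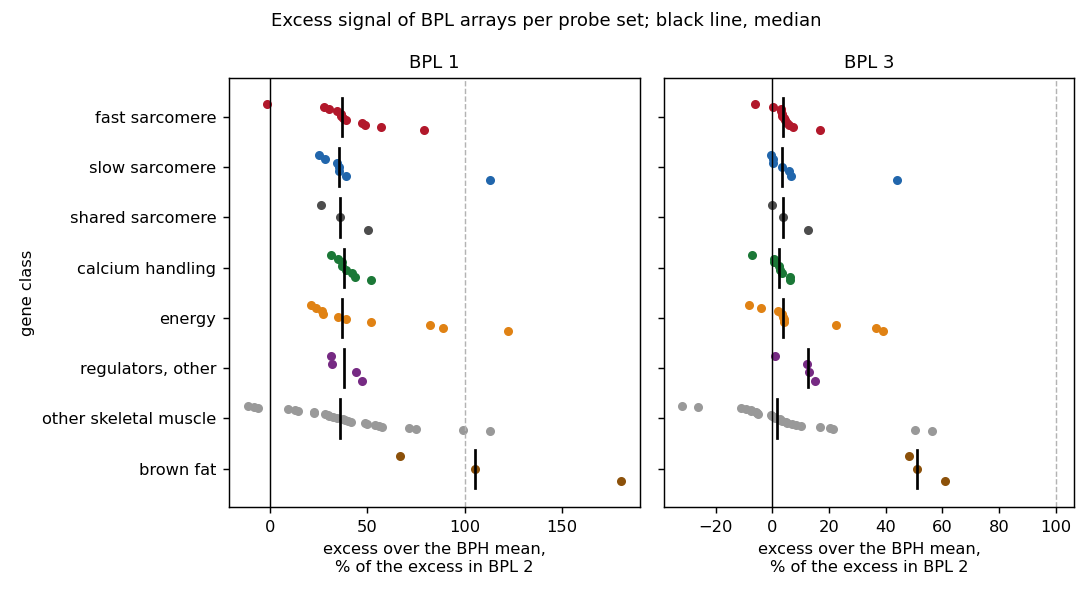
Signal above the BPH mean on BPL 1 (left) and BPL 3 (right), as a percentage of that on BPL 2, for each probe set with an excess over 1000 on BPL 2, with black lines for the class medians. On BPL 1 the muscle classes centre between 35.4% and 37.9%, and brown fat genes lie farther right on both arrays.

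Other genes of skeletal muscle, listed from general knowledge of muscle and not among the 40, gave 55 measured genes of 96 and 28 tested ones. By limma 1 was lower and 0 were higher in BPH, against 0.847% and 3.26% of all tested genes, and the median difference was -0.51. Here too a gene could pass the filter through its BPL signals alone. With no filter the median was -0.37 over the 55 genes, and over their 76 probe sets it was -0.45. The called gene was Ucp3, an uncoupling protein of muscle and brown fat. It was at 4012, 3698 and 2480 in BPL and at 1799.9, 975 and 993 in BPH. Its difference was -1.32 ± 0.26 (SE, limma adjusted p = 0.033). Its groups did not overlap, and BPH replicate 1 was again the highest BPH array. Pgam2, the muscle phosphoglycerate mutase of glycolysis, was at 2050, 8978 and 87.9 in BPL and at 32.6, 27.2 and 66.5 in BPH. Its difference of -2.89 ± 1.02 (SE) did not pass (limma adjusted p = 0.17). Every BPL array was above the BPH arrays, but BPL replicate 3 was as dim as they were, under 203. Fabp3, a fatty acid carrier of muscle and brown fat, and the M-band protein Myom2 had -1.36 and -1.30 and did not pass either (limma adjusted p = 0.22 and 0.30). Without BPL replicate 3, 9 of the 28 were called lower, with 100 probe sets called lower over the array. Without BPL replicate 1, BPL replicate 2, BPH replicate 2 or BPH replicate 3 the number was 0. Over the array, 31, 20, 19 and 26 probe sets were called lower in those fits. In the 26 probe sets with an excess over 1000 in BPL replicate 2, the share was 35.8% in BPL replicate 1 and 1.74% in BPL replicate 3, both medians.

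Lists of heart and smooth muscle genes had medians of -0.42 and 0.16. That of the other skeletal muscle genes was -0.51, close to the heart list, and that of the tested genes among the 40 was -2.34. Of 13 heart genes 12 were measured and 6 tested, 0 were called by limma, and their summed signal ran from 9735 to 17360 in BPL and from 7187 to 8887 in BPH. Myh6, the myosin heavy chain of the adult mouse heart, was under 203 on all 6 arrays. Actc1, the heart actin, had the largest difference, -1.34 ± 0.35 (SE, limma adjusted p = 0.079). It was at 9672, 8903 and 3528 in BPL and at 2782, 2613 and 2247 in BPH. Its probe set is of the family kind, so the signal may include related genes. Actc1 supplied much of the heart sum, which was 17360, 16359 and 9735 on BPL arrays 1, 2 and 3. Of 10 smooth muscle genes 9 were measured and 7 tested, and their sum ran from 16496 to 24662 in BPL and from 22474 to 27602 in BPH. Tagln, an actin-binding protein of smooth muscle, was higher in BPH by 0.93 ± 0.19 (SE, limma adjusted p = 0.037), a call lost with the authors' scaling and after quantile normalization. Des, the filament protein desmin of all muscle, was at 3375, 4235 and 1335 in BPL and at 1154, 1285 and 1336 in BPH, a difference of -0.99 ± 0.35 (SE) that did not pass (limma adjusted p = 0.175).

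Among forms of the same proteins that most cells use, 0 genes were called lower by limma and 1 was called higher in BPH. Of 23 such genes 19 were measured and 14 tested, 5 with a negative difference, and the median was 0.20. The called gene was Tpm4, a tropomyosin of non-muscle cells, at 7496, 7984 and 10081 in BPL and 20851, 21957 and 20219 in BPH, a difference of 1.29 ± 0.16 (SE, limma adjusted p = 0.0048). All its BPH arrays were above all its BPL arrays. Tpm3, a tropomyosin gene that serves slow fibres and other cells, was at 5758, 15191 and 3114 in BPL and at 3399, 3738 and 3684 in BPH, a difference of -0.82 ± 0.47 (SE) that did not pass (limma adjusted p = 0.355). The glycogen phosphorylase Pygb and the actinin Actn1 had 1.18 and 0.62 and did not pass (limma adjusted p = 0.071 and 0.0555). The common cytochrome oxidase subunits Cox6a1 and Cox7a2 had -0.16 and -0.13. The forms made in muscle, Cox6a2 and Cox7a1, had -4.12 and -1.33.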

How the data were processed

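RNA of adrenal glands was made into biotin-labelled cRNA for Affymetrix arrays, per the labels' protocols. The authors deposited intensity values, linear signals with 1 value for each probe set on each array. MAS5 is the tool named in the submitters' processing notes, with no version. Of 12488 probe sets, 66 controls were left out, and 10833 of the rest carry 1 gene symbol. Array medians differed by 21.0%, above a tolerance of 10%, so arrays were scaled to the mean of the medians, 1039.5. Probe sets in the lowest 40% by mean signal were not tested. limma 3.58.1 (R 4.3.3) compared strains on log2(signal + 203), 2-sided, with Benjamini-Hochberg adjustment over 7453 probe sets and a threshold of 0.05, and was tested on simulated data. A gene was counted through its tested probe set with the highest mean. Detection calls were not used here. Arrays shared at most 1 identical value, so none was a copy, and their number limits the precision. The members and lists were chosen with earlier results of these data known. In each class of the 40 genes, the 2 largest and the smallest differences, genes with disagreeing probe sets and positive differences were described in full, and up to 4 genes from each other list. Alternatives were another scaling, pseudocount, floor, filter, variance prior or probe set rule, a replicate block and leaving out arrays.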

Additional observations from a re-analysis of the deposited data

How the results depend on the processing

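The median difference of the tested genes among the 40 stayed negative under every alternative run, from -1.64 to -3.30 with single arrays left out, and so did that of the other skeletal muscle genes, from -0.31 to -0.76. Leaving out BPL replicates 1 and 2 together, or filtering on the mean of log2 values, was chosen after the data were seen. In the first of these the remaining BPL array is assumed to vary like the others, 86 probe sets were called, the medians were -0.72 and -0.07, and 0 other muscle genes were called by limma. The filter on log2 values called 306 probe sets, 69 of them lower in BPH, and 11 of 34 tested members. Counts of calls moved more than the medians. Over all probe sets 294 calls became 127 with no filter and 102 to 375 with single arrays left out. Of the 38 tested genes among the 40, the 9 called lower became 5 with the authors' scaling, 3 after quantile normalization and 3 with a trended and robust variance. The count was 1 of 39 tested genes with no filter and 17 of 29 with the stricter filter. Over all probe sets, 21 and 95 were called lower in these fits, against 64 in the main one. With single arrays left out the count among the 40 genes ran from 1 to 30, and that of all probe sets called lower from 19 to 100. For the other skeletal muscle genes 1 became 0 with no filter and ran from 0 to 9 with single arrays left out. With no filter limma called 0 of these 55 genes. Acta1 was called under all of these settings. The replicate block called 218 probe sets, 63 of them lower in BPH, and 18 of the 40 genes. Deviations of same-numbered arrays from their strain means had correlations of -0.06, -0.06 and -0.19. With 3 arrays per strain these cannot decide whether the numbers pair the samples, and the labels do not say. Other filters change both the number of tests and which of the 40 genes are tested. The cause of the changed counts was not tested. Signals under 203 have no reliable order, which limits what can be said of the BPH arrays.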
